A study of Mus musculus with 4 samples.

Results

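A set of 10 genes long cited as targets of the muscle miRNAs (myomiRs) was examined for Ago2-bound miRNA chimeras in overloaded mouse plantaris. The genes were Hdac4, Twf1, Gja1, G6pdx, Pax7, Igf1, Notch3, Tkt, Pgd and Srf. They were listed by name, and every chimera on the gene's own strand within its RefSeq span (GRCm38) was taken. Of the 10 genes, 9 held at least 1 chimera in each library, among 6476 genes with a chimera in the MOV control and 6754 in the MOV mimic (7810 in either). These came from 49993 RefSeq genes, of which 14221 had no strand and were not searched.

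The plantaris of adult, 5-month-old male C57BL/6J mice had been loaded for 10 days by mechanical overload (MOV), a surgery that removes part of the synergist muscles, and every library analysed here came from overloaded muscle. At surgery the left plantaris received a control lentivirus and the right one a lentivirus for a miR-1 mimic, both with a mouse CMV promoter and a TurboGFP reporter, a promoter that is not specific to muscle fibres. Chimeric eCLIP was then run on 1 library for each group, MOV control and MOV mimic, and whether both muscles came from 1 animal was not stated. The labels also name an input library for each group, which was not analysed here.

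In chimeric eCLIP the Ago2 protein is crosslinked to RNA and pulled down, and each miRNA is joined to the piece of target RNA held with it, so that 1 read names both partners. miR-1 and miR-206 share a seed, the short stretch at the 5′ end of a miRNA that pairs with targets, and they are treated below as the miR-1 family. miR-133a and miR-133b share another seed and are made from the same primary transcripts as miR-1 and miR-206. All are abundant in striated muscle, where miR-1 and miR-206 are known for promoting differentiation and miR-133 for effects on proliferation and on the serum response factor pathway.

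The sequences of the miRNAs that the results turn on are shown first with their seeds (bases 2 to 8) in capitals. miRNAs were grouped into families by name. Within the let-7, miR-15/16, miR-26, miR-27 and miR-29 families each sequence found had the same seed, whereas miR-378 held more than 1 seed, and miRNAs outside the named families were kept apart. They are the mature forms in RefSeq (GRCm38.p6), which gave a sequence for 71 of the 84 miRNAs found at the 10 genes. Those of miR-1a-3p, miR-133a-3p, miR-466i-5p and miR-378a-3p are not printed.
miR-206-3p: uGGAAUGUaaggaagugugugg
miR-133b-3p: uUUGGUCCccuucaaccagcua
let-7b-5p: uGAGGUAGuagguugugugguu
let-7c-5p: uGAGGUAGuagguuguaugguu
let-7i-5p: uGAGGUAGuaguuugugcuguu
miR-29a-3p: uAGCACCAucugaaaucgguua
miR-29b-3p: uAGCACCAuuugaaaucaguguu
miR-26a-5p: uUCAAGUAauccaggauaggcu
miR-126a-3p: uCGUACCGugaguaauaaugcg
miR-16-5p: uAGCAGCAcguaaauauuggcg
miR-27a-3p: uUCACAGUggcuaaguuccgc

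The control file held 232408 chimeric reads in 20754 peaks, and the mimic file 259207 reads in 21872 peaks, a ratio of 1.12 (95% interval 1.11 to 1.12). A line of a file is 1 miRNA in 1 peak, and its value is an estimated read count that is usually a fraction: 55.5% of control lines and 56.3% of mimic lines were under 1 read. With 1 library for each group no test between conditions was possible. All intervals are 95% intervals for counting error alone (exact Poisson for reads, exact Clopper-Pearson for shares, exact conditional binomial for ratios, on rounded reads), and differences describe these libraries. Fibre markers were abundant in both libraries (5 of 5 detected, 27145 reads in MOV control and 33036 in MOV mimic), and chimeras were also present at all 4 fibroblast and all 4 smooth muscle and pericyte markers. In bulk muscle, fewer cells of a type and less RNA per cell cannot be told apart, and chimeras also depend on the amount of each miRNA.

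The 10 genes carried 229 reads over 156 lines and 35 peaks in MOV control, and 173 reads over 123 lines and 31 peaks in MOV mimic. The ratio of mimic to control was 0.753 (0.616 to 0.924), against 1.12 for all reads. Igf1 alone gave 107 reads in MOV control and 77.3 in MOV mimic. Without Igf1 the ratio of the other genes was 0.781, and its interval of 0.589 to 1.03 included 1, as did that of all 10 genes with lines of at least 3 reads (0.779, 0.575 to 1.04). The ratios are not scaled to depth, and both of these intervals lay below the 1.12 of all reads. The plot of reads for each gene shows that Igf1 and Hdac4 carried most reads and that G6pdx, Srf and Pax7 carried few or none.

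**Figure D1:**
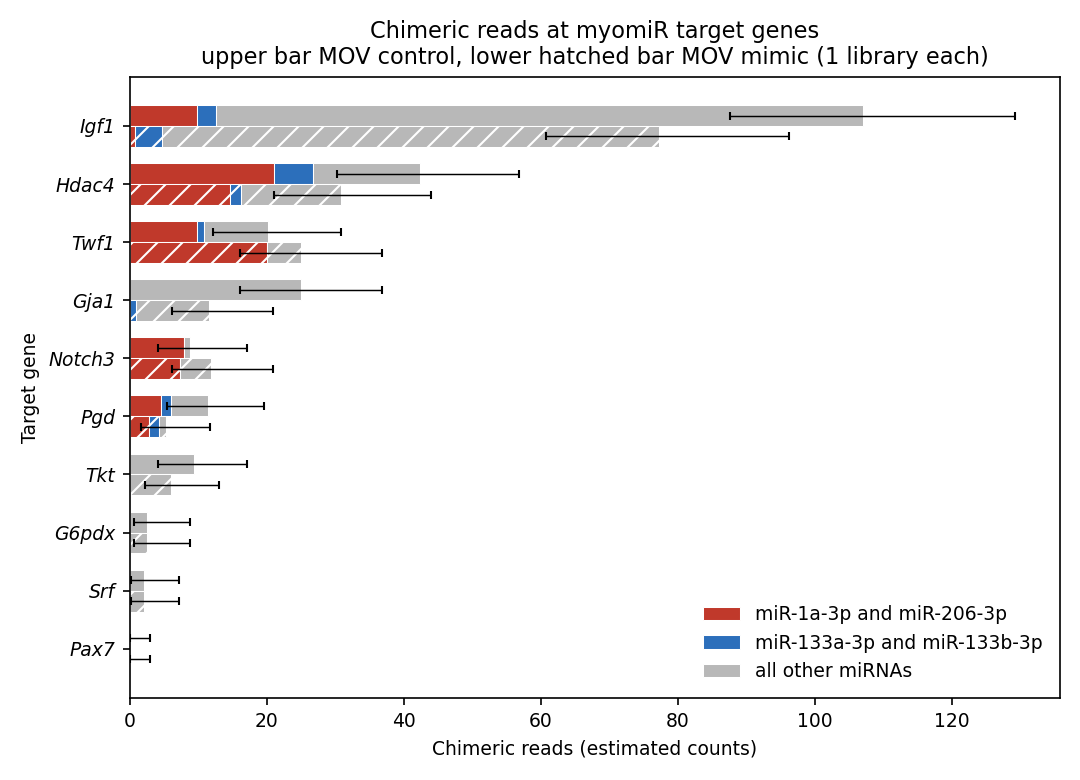
Chimeric reads (estimated counts, x axis) at each of the 10 target genes (y axis), with the MOV control library as the upper bar and the MOV mimic library as the lower hatched bar, split into the miR-1 family, miR-133 and all other miRNAs. Lines are 95% Poisson intervals of the total. Igf1 had 107 and 77.3 reads, nearly all of other miRNAs, whereas the miR-1 family made up much of the bars of Hdac4, Twf1, Notch3 and Pgd, and Pax7 had none.

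Levels can be ordered between genes only for their length. Per kb of the longest GENCODE transcript, and with both libraries summed, Igf1 came first with 25.9 reads per kb (22.2 to 29.9). Hdac4 followed with 18.6 (14.5 to 23.3), Twf1 with 14.97 (10.9 to 19.9) and Gja1 with 11.8 (8.39 to 16.4). Pgd had 7.56 reads per kb, Tkt 4.78, Notch3 2.58, G6pdx 1.91 and Srf 1.004. Pax7 was at 0 in both libraries, which allows up to 3 reads in each. Each gene's interval overlapped that of its neighbour in this order. Overlap alone does not show that neighbours were alike, and differences between genes were not tested. The Hdac4 transcript used for its length has a 3′UTR of 590 nt, whereas peaks lay up to 4115 nt from the 3′ end of the span and 1 control peak lay 152001 nt from it.

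Chimeras of the miR-1 family were found at 5 of the 10 genes, Hdac4, Twf1, Igf1, Notch3 and Pgd, and at the same 5 in both libraries. As background, 49.8% of genes with any chimera held one of this family in MOV control, 51.1% in MOV mimic, and 42.5% of genes with chimeras in both libraries held one in both. Among genes of 20 to 200 reads the last share was 59.8%. The count of 5 genes was near the background. miR-1a-3p alone was also found at these 5 genes in both libraries, beside 42.2% of genes with control chimeras, 44.8% with mimic chimeras, 35.4% for both libraries, and 51.2% for both among genes of 20 to 200 reads. Gja1, G6pdx, Tkt and Srf held chimeras of other miRNAs but none of the miR-1 family in either library.

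Chimeras of miR-133a-3p or miR-133b-3p were found at 4 genes in MOV control (Hdac4, Twf1, Igf1 and Pgd) and at 4 in MOV mimic (Hdac4, Gja1, Igf1 and Pgd), with 3 in both. The background was 52.8% of genes in MOV control, 55% in MOV mimic and 45.2% in both libraries, or 63.3% in both among genes of 20 to 200 reads. Only a single line of miR-133 at these genes exceeded 3 reads, in MOV control library at Hdac4. Srf, a textbook target of miR-133 in muscle, had no miR-133 chimera in either library. It held only 2.08 reads of all miRNAs in MOV control and 2.03 in MOV mimic, so this absence says little at this depth.

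Over the 10 genes the miR-1 family had 53.1 reads in MOV control and 45.7 in MOV mimic (ratio 0.861, 0.572 to 1.31), and without Igf1 43.3 and 44.9 (ratio 1.04, 0.674 to 1.63). miR-1a-3p, the miRNA of the mimic, had 33.4 and 33.1 reads at these genes (ratio 0.991, 0.598 to 1.67), and without Igf1 25.3 and 32.7 (ratio 1.29, 0.761 to 2.32). Over all reads of the libraries, within genes or not, it had 27411 and 35876 (ratio 1.31, 1.29 to 1.33). miR-206-3p had 19.7 reads in MOV control and 12.6 in MOV mimic (ratio 0.641, 0.297 to 1.37), and over all reads 15264 and 14448 (ratio 0.947, 0.925 to 0.968). For each miRNA the interval at the 10 genes covered the ratio over all reads. miR-133 had 10.9 reads in MOV control and 8.07 in MOV mimic (ratio 0.739, 0.254 to 1.99). Without Hdac4, which held the line of 5.65 reads, miR-133 had 5.28 and 6.49 reads (ratio 1.23, 0.305 to 4.97).

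The myomiRs together made up 28.0% (22.2 to 34.2%) of the reads at the 10 genes in MOV control and 31.2% (24.4 to 38.7%) in MOV mimic. Pooled over the reads of all other genes, their share was 42.8% in MOV control and 45.2% in MOV mimic, above both intervals. The pooled share weights genes by their reads, and the median share of genes with 20 to 200 reads was 29.0%, within both intervals. miR-133 gave 4.77% and 4.68% of the reads at the 10 genes and 25.1% and 26.9% elsewhere. The miR-1 family had 23.2% (17.8 to 29.2%) and 26.5% (20.2 to 33.8%) at the 10 genes, against 17.7% and 18.3% elsewhere. Without Igf1, the myomiR share was 42.2% in MOV control and 51.5% in MOV mimic.

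Peaks of the same strand that overlapped were merged into 43 sites. Of these, 21 were present in both libraries, and each of the 21 had at least 1 miRNA named in both. Of the peaks at these genes, 62.9% in MOV control and 71.0% in MOV mimic overlapped a peak of the other library, against 53.4% and 50.6% of all peaks. A line with the same miRNA lay at an overlapping place in the other library for 28.8% of control lines and 37.4% of mimic lines, against 35.5% and 32.7% of all lines. The miR-1 family was the leading family, with the most reads over both libraries, at 10 sites of 5 genes, and 6 of those sites were in both libraries. Let-7 led at 6 sites, miR-15/16 at 5 and miR-29 at 4, and miR-133 led at 2.

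**Figure D2:**
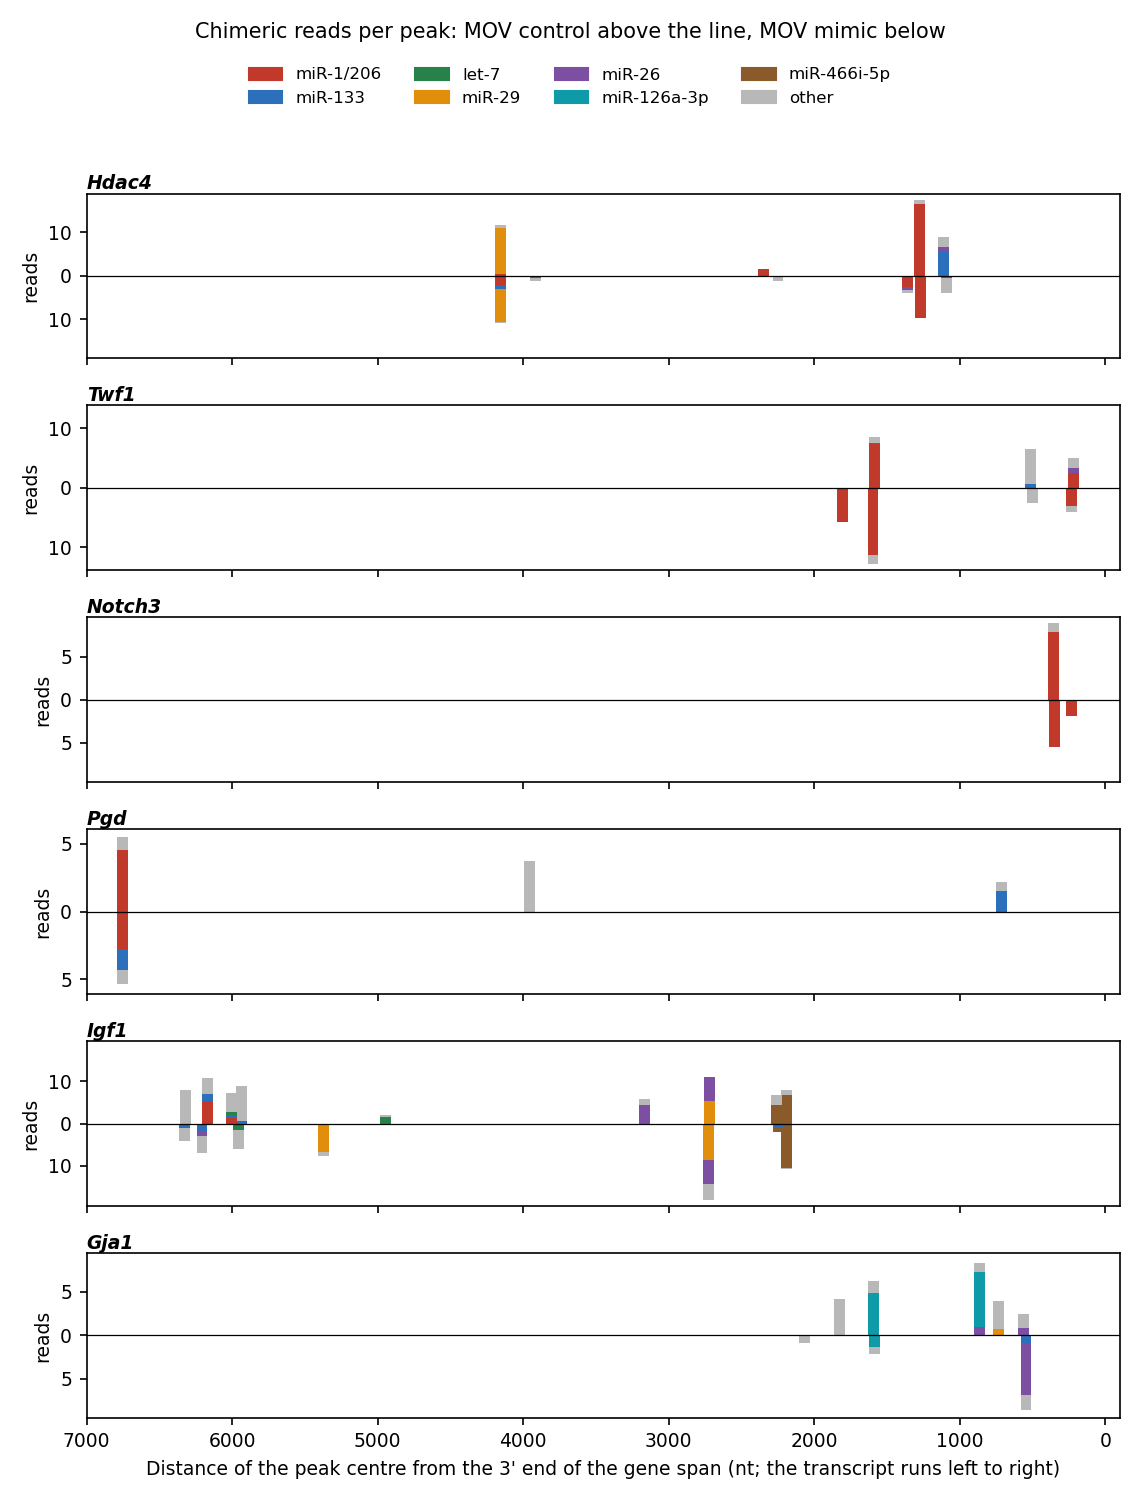
Chimeric reads in each peak (y axis, MOV control above the line and MOV mimic below it) against the distance in nt of the peak's centre from the 3′ end of the gene span (x axis), for the last 7000 nt of 6 genes, coloured by miRNA family. The miR-1 family has the most reads in the tallest bars of Twf1, Notch3 and Pgd, at matching places in both libraries. At Pgd in MOV mimic it has 2.76 of 5.31 reads. It also leads the tallest bar of Hdac4 in MOV control, whereas in MOV mimic the miR-29 peak of Hdac4 is the taller (10.9 against 9.70 reads). Gja1 shows miR-126a-3p and miR-26, and Igf1 a mixture of families.

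Hdac4 (gene ID 208727, chr1:91928779-92195702, minus strand) encodes a class II histone deacetylase that represses MEF2-dependent muscle genes, and it is a long-known target of miR-1. It had 42.4 reads in MOV control and 30.9 in MOV mimic (ratio 0.727, 0.449 to 1.202). The miR-1 family accounted for 21.1 of these in MOV control and 14.7 in MOV mimic, a share of 48.8% over both libraries, above that of 91.5% of the 2540 genes with 20 to 200 reads. miR-1a-3p had 13.9 and 12.7 reads, and miR-206-3p had 7.14 and 2.

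Most miR-1 family reads of Hdac4 fell on 1 site, chr1:91929997-91930159, which lay 1218 nt from the 3′ end of the gene span. It held 16.6 reads of the family in MOV control and 12.2 in MOV mimic, out of 17.6 and 13.6 reads of all miRNAs. The only miR-133 line of Hdac4 in MOV control lay next to it, at chr1:91929851-91929930, with 5.65 reads of miR-133a-3p. In the mimic this place had no miR-133 line, and the 3 miR-133a-3p lines found elsewhere in Hdac4 summed to 1.58 reads.

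The second main site of Hdac4, chr1:91932888-91932981, belonged to miR-29, a family known for targeting collagens and other matrix genes. miR-29 had 10.7 reads there in MOV control and 7.58 in MOV mimic, and miR-29a-3p, miR-29b-3p and miR-29c-3p were each named in both libraries. The longest GENCODE transcript of Hdac4 holds 2 matches to the miR-29 seed (TGGTGCT, the reverse complement of bases 2 to 8), both in the 3′UTR, and none to the miR-1 seed (ACATTCC). Its 3′UTR has only 590 nt, whereas the main miR-1 family site lay 1218 nt and the miR-29 site 4109 nt from the 3′ end of the span. The transcript searched may therefore lack the sequence at these sites. The miR-29 match occurs in 27.2% of all genes' transcripts and the miR-1 match in 16.9%. Windows of 26 bases around the 2 matches, with the match in capitals, are shown to set them beside the chimeras.
Hdac4 at base 3431 of the transcript: cctgcgtcctgcctTGGTGCTctctt
Hdac4 at base 3742 of the transcript: aacttgattaaaacTGGTGCTtaaca
Transcripts were of the earlier mouse build (NCBIM37), and whether a match lay beneath a peak was not determined, here or for the genes below.

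Twf1 (gene ID 19230, chr15:94577948-94589884, minus strand) encodes twinfilin-1, a protein that binds actin monomers and caps filaments. It had 20.2 reads in MOV control and 25.1 in MOV mimic (ratio 1.24, 0.667 to 2.37). The miR-1 family had 9.83 and 20.1 reads, a ratio of 2.04 whose interval of 0.894 to 4.78 included 1. miR-1a-3p had 6.51 reads in MOV control and 15.9 in MOV mimic, and miR-206-3p had 3.32 and 4.15. Over both libraries the family gave 66.1% of Twf1 reads, more than in 96.0% of genes of similar reads.

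Of the sites in Twf1, 3 carried the miR-1 family. The main one, chr15:94579494-94579587, had 7.32 reads of the family in MOV control and 11.3 in MOV mimic. The site nearest to the 3′ end of the span, chr15:94578129-94578209, had 2.51 and 3.05, and chr15:94579730-94579771 had none in MOV control and 5.71 in MOV mimic. Between them lay a site of miR-30, a family expressed in many tissues, with 5.87 reads in MOV control and 0.702 in MOV mimic. The Twf1 transcript holds 1 miR-1 seed match and 3 miR-30 seed matches (TGTTTAC), all in the 3′UTR. The miR-1 match is shown because, in the transcripts searched, Twf1 and Igf1 were the only genes with both such a match and chimeras of the family.
Twf1 at base 2799 of the transcript: atcgaagtcaatgcACATTCCagaat
Igf1 at base 963 of the transcript: aaatatacaagtaaACATTCCaacat

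Notch3 (gene ID 18131, chr17:32120820-32166896, minus strand) encodes a Notch receptor of vascular mural cells and satellite cells. It had 8.88 reads in MOV control and 11.9 in MOV mimic (ratio 1.34, 0.516 to 3.58). The miR-1 family gave 7.88 and 7.37 of these, and at 73.4% over both libraries its share was higher than in 97.6% of genes of similar reads. miR-206-3p led at Notch3, with 5.90 reads in MOV control and 4.05 in MOV mimic, ahead of miR-1a-3p with 1.99 and 3.32.

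In both libraries the family's reads at Notch3 lay at chr17:32121119-32121230, 299 nt from the 3′ end of the span, with 7.88 reads in MOV control and 5.53 in MOV mimic. A further site, chr17:32121028-32121068, had 1.84 reads of the family in MOV mimic alone. The mimic also had 3.73 reads of miR-378, a miRNA family linked to metabolism, at chr17:32137809-32137865, where the control had no peak. The Notch3 transcript holds no full miR-1 seed match, and 4 matches to its bases 2 to 7 alone, of which 3 are in the 3′UTR. No miR-133 chimera was found at Notch3, whose transcript holds 1 match to the miR-133 seed (GGACCAA) in the coding sequence. Of the smooth muscle and pericyte markers, of which Notch3 is one, all 4 had chimeras, with summed levels of 191 reads in MOV control and 208 in MOV mimic.

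Pgd, Tkt and G6pdx encode enzymes of the pentose phosphate pathway, which makes NADPH and ribose: G6pdx and Pgd act in its oxidative branch and Tkt in its non-oxidative branch. Among them, Pgd alone had chimeras of the myomiRs. Pgd (gene ID 110208, chr4:149149991-149166705, minus strand) had 11.4 reads in MOV control and 5.31 in MOV mimic (ratio 0.464, 0.124 to 1.42). The miR-1 family had 4.54 and 2.76 of these, all at chr4:149156706-149156778, which lay 6715 nt from the 3′ end of the span. miR-206-3p had 1.69 reads in MOV control and 2 in MOV mimic, and miR-1a-3p had 2.85 and 0.765.

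miR-133 at Pgd had 1.52 reads in MOV control and 1.55 in MOV mimic, but at different sites: chr4:149150677-149150725 in MOV control, and the miR-1 family's site in MOV mimic. miR-15/16, a family known for regulating the cell cycle, had 3.75 reads at Pgd in MOV control and 1 in MOV mimic. The Pgd transcript holds no full miR-1 seed match, 3 matches to bases 2 to 7 that all lie outside the 3′UTR, and 1 match to the miR-15/16 seed (TGCTGCT) in the coding sequence.

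Tkt (gene ID 21881, chr14:30549131-30574724, plus strand) had 9.37 reads in MOV control and 6.06 in MOV mimic (ratio 0.646, 0.195 to 2.10). The only one of its sites found in both libraries, chr14:30573439-30573509, held miR-27 alone, with 2.31 reads in MOV control and 2.38 in MOV mimic. miR-27a-3p and miR-27b-3p were each named there in both libraries. Let-7 had 2.42 and 0.629 reads at Tkt, at different sites, and miR-29a-3p had 2.35 reads in MOV control and none in MOV mimic. The Tkt transcript holds 1 miR-1 seed match, in the 3′UTR.

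G6pdx (gene ID 14381, chrX:74409483-74428880, minus strand) had 2.55 reads in MOV control and 2.50 in MOV mimic, all at chrX:74412337-74412392. Let-7 gave 1 and 1.502 of these, and let-7c-5p was the only miRNA named in both libraries. miR-142a-3p and miR-379-5p were found in MOV control alone and miR-196a-5p in MOV mimic alone, each at 1 read or less. The G6pdx transcript holds 2 miR-1 seed matches in the 3′UTR but had no chimera of the family, which at this depth allows up to 3 reads in each library.

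Igf1 (gene ID 16000, chr10:87858265-87937047, plus strand) encodes insulin-like growth factor 1, a driver of muscle growth and a reported target of miR-1. It had 107 reads in MOV control (87.7 to 129) and 77.3 in MOV mimic (60.8 to 96.2), a ratio of 0.722 (0.530 to 0.974). It was named with 50 miRNAs in MOV control and 33 in MOV mimic, 23 of them shared, which is far more than at any other gene of the set. The miR-1 family gave only 5.74% of its reads over both libraries, below the median of 8.34% for genes of 20 to 200 reads.

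The miR-1 family at Igf1 had 9.79 reads in MOV control and 0.788 in MOV mimic (ratio 0.0805, 0.0023 to 0.703). The control reads were spread over 7 lines, the highest being 5.25 reads of miR-1a-3p at chr10:87930828-87930923, and in MOV mimic neither of its lines reached 1 read. The control was thus the higher library, and the interval of the ratio excluded 1 for counting error. miR-133 had 2.78 reads at Igf1 in MOV control and 3.95 in MOV mimic. Its single site found in both libraries, chr10:87930798-87930923, had 1.76 and 1.93 reads and overlapped the miR-1a-3p line of the control.

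Other miRNAs dominated Igf1. Let-7, a family abundant in adult tissue, had 26.3 reads in MOV control and 16.1 in MOV mimic, most of them close to the 5′ end of the gene at chr10:87864728-87864810 (17.7 and 11.0) and chr10:87859287-87859417 (6.01 and 3.53). miR-26 had 13.1 reads in MOV control and 7.78 in MOV mimic. miR-29 was higher in MOV mimic, with 5.22 and 15.3 reads. At chr10:87934284-87934367 it had 5.22 reads in MOV control and 8.53 in MOV mimic, and at chr10:87931642-87931705 it had 6.81 in MOV mimic where the control had no peak.

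miR-466i-5p, with 10.9 reads in MOV control and 11.6 in MOV mimic, was found at no other gene of the set and made up 2 neighbouring sites, chr10:87934751-87934822 and chr10:87934823-87934893. The Igf1 transcript holds 1 match to the miR-1 seed, 1 to let-7 (CTACCTC), 2 to miR-26 (TACTTGA) and 2 to miR-29, all in the 3′UTR. The 2 main let-7 sites of the data lay 77630 and 72237 nt from the 3′ end of the span, where exons and introns were not distinguished. A smaller let-7 site, chr10:87932085-87932115, lay 4932 nt from that end, with 1.59 let-7 reads in MOV control and no peak in MOV mimic. Further let-7 lines, each under 1 read, lay at chr10:87931005-87931144.

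Gja1 (gene ID 14609, chr10:56377300-56390419, plus strand) encodes connexin 43, a gap junction protein of endothelial and other cells that is lost as myoblasts fuse, and it is reported as a target of miR-1 and miR-206. It had 25.04 reads in MOV control (16.2 to 36.9) and 11.6 in MOV mimic (6.20 to 21.0), a ratio of 0.463 (0.220 to 0.991). Only 3.41% of 2728 genes with at least 20 reads had a lower ratio, and 4.91% were at or under 0.5. No miR-1 family chimera was found in either library, and of miR-133 only 1 read, in MOV mimic.

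The leading miRNA at Gja1 was miR-126a-3p, an endothelial miRNA, with 11.1 reads in MOV control and 1.38 in MOV mimic. It was named at chr10:56388774-56388875 in both libraries (4.81 and 1.38 reads) and at chr10:56389514-56389597 in MOV control alone (6.31). miR-26 went the other way, with 1.81 reads in MOV control and 5.87 in MOV mimic, and its main site was chr10:56389833-56389917. miR-15/16 had 4.13 and 0.697 reads, and miR-30 had 3.19 and none. In the whole libraries miR-126a-3p made up 0.403% of reads in MOV control and 0.451% in MOV mimic. The endothelial markers Pecam1, Cdh5 and Kdr summed to 20.5 reads (2 of 3 detected) in MOV control and 39.1 (3 of 3) in MOV mimic. They did not move together: Pecam1 had 0 and 9.66 reads and Cdh5 11.03 and 25.5, whereas Kdr had 9.43 and 3.93. The part of these levels in the Gja1 values was not tested.

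The Gja1 transcript holds 2 miR-1 seed matches in the 3′UTR. They are shown because this gene combined a sizeable number of chimeras with none of the family.
Gja1 at base 1858 of the transcript: atccccgctaaaaaACATTCCagtgt
Gja1 at base 2982 of the transcript: aactaatttgtttgACATTCCatgtt
It holds no match to the seed of miR-126a-3p (CGGTACG, in 1.23% of transcripts) or of miR-26. For miR-30 it holds 1 match, in the 3′UTR, and for miR-15/16 it holds 1, in the coding sequence.

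Srf (gene ID 20807, chr17:46546838-46558267, minus strand) encodes serum response factor, a transcription factor of contractile genes. It had 2.08 reads in MOV control and 2.03 in MOV mimic, all at chr17:46550901-46550962. let-7i-5p was the only miRNA named in both libraries, with 2.05 reads in MOV control and 0.0975 in MOV mimic, and miR-151-5p had 1.93 reads in MOV mimic alone. Its transcript holds no match to the seed of miR-1 or of miR-133, and 1 match to bases 2 to 7 of miR-133 in the 3′UTR.

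Pax7 (gene ID 18509, chr4:139737059-139833530, minus strand) encodes the transcription factor that defines satellite cells, the muscle stem cells. It had no chimera with any miRNA in either library. Myf5, another satellite cell marker, was also at 0 in both, whereas Cd34, which endothelial and other cells express too, had 28.4 reads in MOV control and 30.2 in MOV mimic. The Pax7 transcript holds 4 miR-1 seed matches, the most of the 10 genes, and 2 miR-133 matches, of which the pair nearest to each other is shown.
Pax7 at base 4245 of the transcript, miR-1 match: cagccaagggagcaACATTCCaacgc
Pax7 at base 4259 of the transcript, miR-133 match: acattccaacgcttGGACCAAtcata
By the fixed limit, a count of 0 allows up to 3 reads in each library, so that binding below this was not detectable at this depth.

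Some families recurred across the genes and others were found at 1 gene only. The miR-1 family was found at 5 genes, miR-26 at 5 and miR-15/16 at 6, whereas miR-126a-3p and miR-466i-5p were each found at a single gene. Apart from the miR-1 family, the share of all genes holding these miRNAs was not computed, so the counts do not set the 10 genes apart. miR-15/16 summed to 15.04 reads in MOV control and 5.39 in MOV mimic (ratio 0.358, 0.0948 to 0.965), and miR-30 to 10.4 and 1.25 (ratio 0.120, 0.0023 to 0.703). miR-29 summed to 19.0 and 22.9 reads (ratio 1.21, 0.631 to 2.35), 8.30% and 13.3% of the reads at these genes, beside 2.41% and 2.46% of all reads. Let-7 summed to 31.8 and 18.3 reads (ratio 0.576, 0.297 to 1.03).

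**Figure D3:**
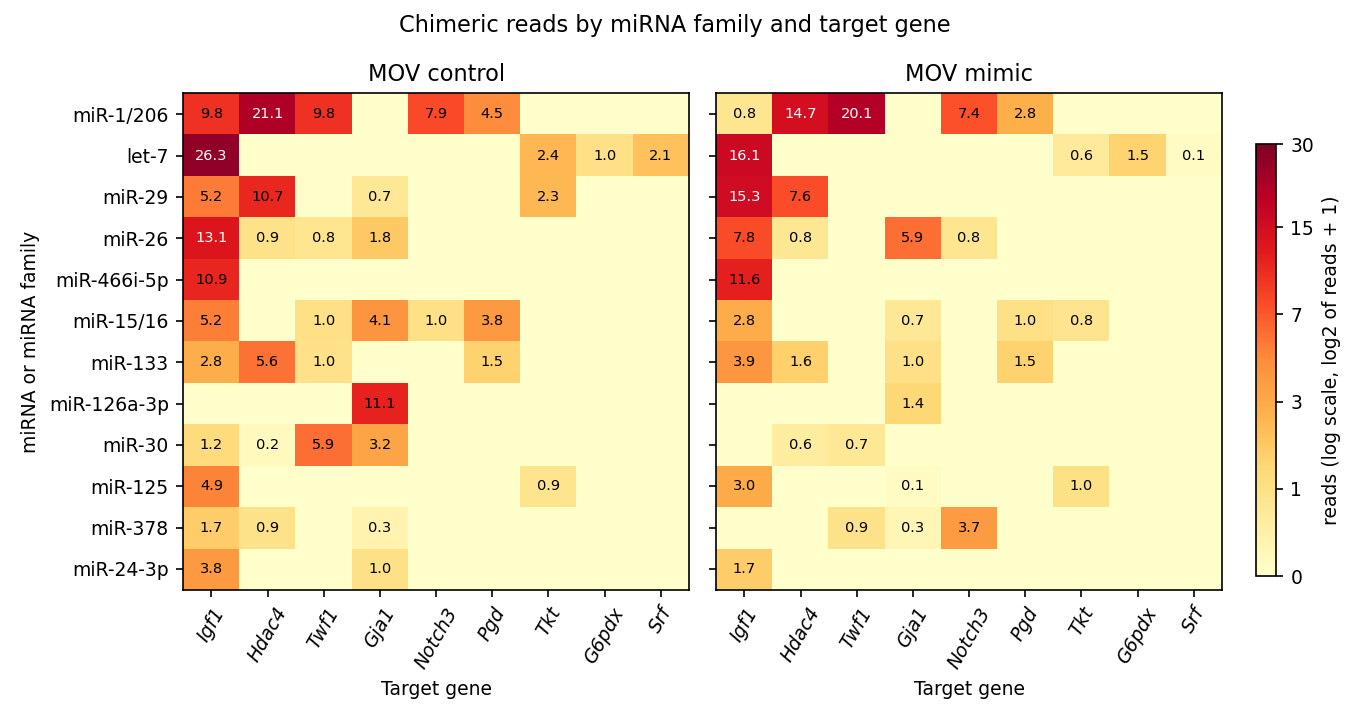
Chimeric reads of 12 miRNA families (y axis) at the 9 genes with chimeras (x axis) in MOV control (left) and MOV mimic (right), coloured on a log2(reads + 1) scale with the reads printed in each cell and blank cells at 0. The top row shows the miR-1 family at Igf1, Hdac4, Twf1, Notch3 and Pgd alone, with 9.79 and 0.788 reads at Igf1 and 9.83 and 20.1 at Twf1.

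Between libraries, 5 of the genes had at least 20 reads and could be set against the other genes. Their ratios were 0.463 for Gja1, 0.722 for Igf1, 0.727 for Hdac4, 1.24 for Twf1 and 1.34 for Notch3, and the median of 2728 genes was 1.06. A ratio under 1 was found for 3 of the 5, against 43.4% of all such genes, and a ratio at or over 2 for none, against 7.18%. Apart from those of Gja1 and Igf1, the intervals included 1. With lines of at least 1 read, those of Gja1 (0.605, 0.241 to 1.36) and Igf1 (0.775, 0.554 to 1.096) included 1 as well. These ratios are not scaled to depth, and that interval of Igf1 held the median of 1.06 but not the 1.12 of all reads. With lines of at least 3 reads, those of Hdac4 (0.410, 0.187 to 0.805) and Twf1 (3.58, 1.29 to 10.1) excluded 1, and the Notch3 ratio fell below 1 (0.605, 0.138 to 2.81).

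**Figure D4:**
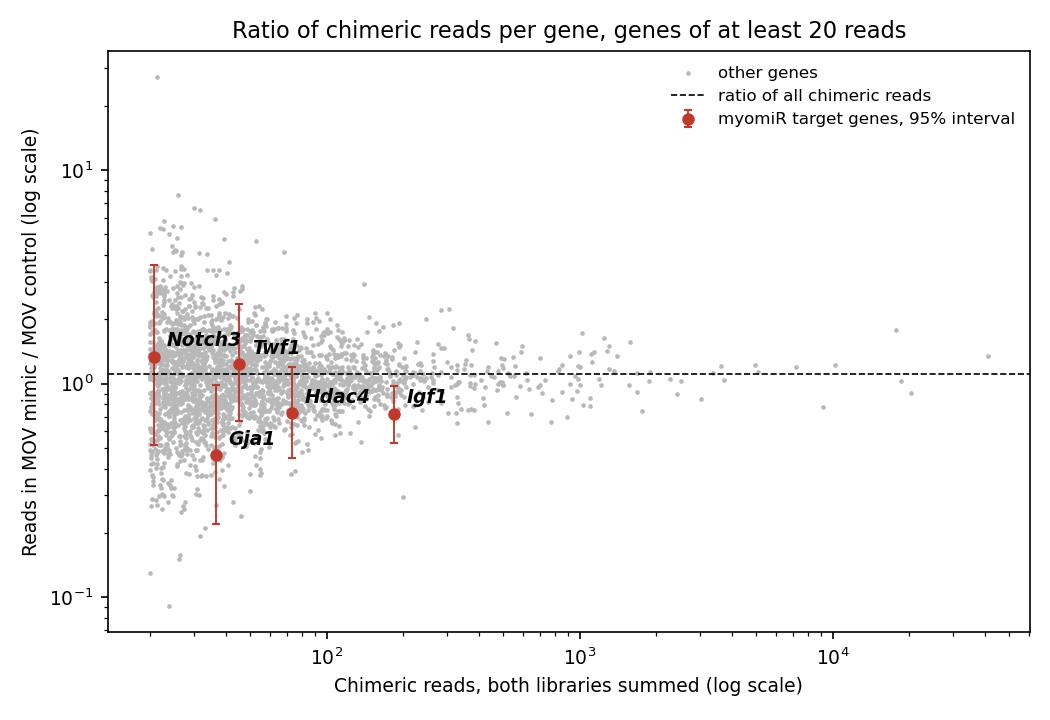
Ratio of MOV mimic to MOV control reads for each gene (y axis, log scale) against reads summed over both libraries (x axis, log scale) for genes with at least 20 reads. Red points are the 5 target genes with 95% intervals, grey points are other genes, and the dashed line is the ratio of all reads, 1.12. The red points lie within the cloud of grey points, with Gja1 near its lower edge.

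Genes whose mixture of miRNAs was most like that of each target were found by the cosine of their reads for each miRNA, both libraries summed, among genes with at least 20 reads. Snx2 was most like Twf1 (cosine 0.985), Plin4 most like Notch3 (0.964) and Hbp1 most like Hdac4 (0.934). Aqp1 was most like Gja1 (0.828) and Parvb most like Igf1 (0.715). For the 10 genes pooled, Rhoj (0.885), Trps1 (0.883) and Cnn3 (0.863) came first, and the median over 2723 genes was 0.381.

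Other genes of the same kind were taken from lists of reported targets, paralogs and pathway partners. Of 32 further reported targets of miR-1 or miR-206, 29 had chimeras in either library and 18 of the 27 with chimeras in both libraries had the miR-1 family in both, beside 42.5% of all such genes and 59.8% of those with 20 to 200 reads. The highest was Fn1, which encodes the matrix protein fibronectin, with 1284 reads of the family in MOV control and 1128 in MOV mimic. Calm2 followed with 56.8 and 48.8 reads. Both of them had more miR-1 family reads than any of the 10 genes.

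Of 25 further reported miR-133 targets with a usable span, 19 had chimeras in either library and 10 of the 17 with chimeras in both libraries had miR-133 in both, beside 45.2% of all such genes and 63.3% of those with 20 to 200 reads. Col1a1, the main fibrillar collagen gene, had 639 miR-133 reads in MOV control and 734 in MOV mimic. Ppp2ca, a phosphatase subunit, had 40.3 and 45.9, and Ppp3ca, the catalytic subunit of calcineurin, had 4.86 and 17.8.

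Among 8 other genes of the pentose phosphate pathway, 4 had chimeras in either library. Both of those with chimeras in the 2 libraries had a myomiR in each, beside 66.3% of all such genes. H6pd, which carries out the oxidative steps in the endoplasmic reticulum, had 7.66 reads of the miR-1 family and miR-133 together in MOV control and 22.4 in MOV mimic. Taldo1, an enzyme of the non-oxidative branch, had 1.66 and 1.60, all of miR-133. Of 25 paralogs and partners of the 10 genes, 16 had chimeras in either library, and 12 of the 14 with chimeras in both had a myomiR in both, beside the same 66.3%. Igf2, a growth factor, led with 83.1 and 86.9 myomiR reads, ahead of Igfbp5, an IGF-binding protein, with 70.9 and 79.5, and Cfl1, an actin-severing protein, with 22.9 and 9.25. Hdac9 and Mef2c, a paralog and a partner of Hdac4, had 5.84 and 2.50 and 13.9 and 16.8 myomiR reads.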

How the data were processed

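Chimeric eCLIP was measured in overloaded plantaris, with 1 library for each group. The authors deposited estimated counts of chimeric reads for each miRNA in each peak, not scaled to depth. Why most values are fractions is not given in the sources used here. Per the labels, the submitters' processing notes name UMI-tools 1.1.1, cutadapt 3.2, STAR 2.7.7a, Bowtie 1.2.3 and HOMER 4.11 and the mm10 build. The methods describe trimming, removal of repetitive elements, alignment with STAR to mm9, removal of PCR duplicates by start position and random sequence, CLIPper peaks, and an amplification with a miR-1 primer, which could raise the share of miR-1.

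Lines were assigned to genes by an overlap of at least 1 nt, on the gene's strand, with RefSeq spans of GRCm38.p6, and coordinates count from 1. No peak at the 10 genes overlapped another gene on its strand, and no antisense line was found. Exons of GRCm38 were not used here. Seed matches were counted in the longest GENCODE vM1 transcript of each gene (NCBIM37). Intervals cover counting error only. The genes named were the 10 targets, the 3 miRNAs with most reads at each and the 3 leading genes of each list (1 of which is not reported here), with others (such as Hdac9 and Mef2c) chosen after their values were seen. The genes and lists were chosen with earlier results of these data known. Python 3.11.15, pandas 2.3.3 and scipy 1.17.1 were used, and the steps were tested on simulated data. Alternatives were minimum reads of 1 or 3 for each line, other overlap, strand and gene rules, division by depth, lines in place of reads, single miRNAs in place of families, and, added after seeing the data, leaving out Igf1 or Hdac4.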

Additional observations from a re-analysis of the deposited data

How the results depend on the processing

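Of 78 alternative values of the main counts, ratios and shares, 65 lay within 1.5 times the reported count or within the counting interval of the reported ratio or share, and 13 did not. Those intervals are wide, and 2 ratios crossed 1 within them, that of the miR-1 family without Igf1 (1.04) and that of miR-133 without Hdac4 (1.23). The overlap, strand and gene rules returned every main value unchanged, so their share of the 65 says nothing about stability. With no antisense line and no other gene on the strand at these peaks, the strand and gene rules could not change a value. Requiring at least 3 reads in a line left the miR-1 family at 3 genes in MOV mimic and 3 in both libraries, and left miR-133 at 1 gene in MOV control, 0 in MOV mimic and 0 in both, so that the ratio of miR-133 reads became 0. The myomiR share in MOV control then rose to 36.5%. Requiring at least 1 read left miR-133 at 2 genes in MOV control. Counted over lines in place of reads, the myomiR share was 19.9% in MOV control and 23.6% in MOV mimic. Without Igf1, it was 42.2% and 51.5%, and without Hdac4 it was 20.004% in MOV control. For single genes, 48 of 50 alternative ratios lay within the reported interval, again counting the unchanged values of those rules, but 5 moved by over 1.5 times. With at least 3 reads in a line the ratio was 0.410 for Hdac4, 3.58 for Twf1 and 0.605, below 1, for Notch3, and with at least 1 read it was 0.256 for Tkt and 0.5 for G6pdx. The intervals of Gja1 and Igf1 included 1 with at least 1 read, and that of Igf1 also with at least 3. With at least 1 read, the Igf1 interval still lay below 1.12, the ratio of all reads. Fewer lines remained under the minimum by construction, and other causes were not tested. No paired analysis was possible because MOV control and MOV mimic were 1 library each. The low reads behind most lines limit every statement on a single miRNA at a single gene.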
